A study of Mus musculus with 18 samples.

Results

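Ribosome-protected fragments (RPFs) were compared with RNA, gene by gene, in the control (Ctrl) cerebral cortex of mouse embryos at embryonic day 15.5. The genes were those with a mean of at least 1 FPKM (fragments scaled to gene length and library depth) over the 3 Ctrl RNA-seq libraries, 13574 of the 55153 genes listed. Of these, 164 loci with no identifier had no Ribo-seq value, so 13410 genes were tested. The 240 genes just above this minimum had a median of 0.391 RPKM (reads scaled likewise) in Ribo-seq, and the 270 genes just below it had 0.430.

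The study asked how methylation of mRNA on adenosine (m6A) shapes the developing cortex, and measured RNA and RPFs in 3 groups with 3 libraries each per assay. Ctrl mice were wild type. *F*-cKO mice carried floxed *Fto*, which encodes an m6A demethylase, and *M*-cKO mice carried floxed *Mettl3*, which encodes the m6A methyltransferase, both with *Emx1*-Cre. The labels give the C57BL/6 strain and the same age for every sample, while the methods of the study give the floxed lines a mixed background. *Emx1* drives Cre in the progenitors of the dorsal forebrain and their progeny, so that vessels, microglia and neurons arriving from the ganglionic eminences keep the floxed genes. The labels call the samples biological repeats and do not say whether each came from a separate animal, and the methods can be read as taking the Ribo-seq samples from a single litter, so the *P* values below measure the spread between these samples.

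A ribosome shields the stretch of mRNA that it is decoding from nuclease, and the number of shielded fragments per unit of RNA is taken as translation efficiency (TE). Messages that start with a tract of pyrimidines (TOP mRNAs), chiefly those of ribosomal proteins and elongation factors, are placed on or off ribosomes through mTOR signalling. Other messages are held back by reading frames upstream of the start codon, by iron-responsive elements or by polyamine-sensing frames, and messages of secreted and membrane proteins are translated at the endoplasmic reticulum.

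The Ctrl RNA-seq libraries 1, 2 and 3 held 22169914, 20683998 and 18504094 counts, and the Ctrl Ribo-seq libraries held 35853227, 30081796 and 31570596. Across the genes tested, log2 RPKM correlated between Ribo-seq libraries at 0.988 to 0.990 and log2 FPKM between RNA-seq libraries at 0.980 to 0.984. Between RPKM and FPKM the correlation was 0.628 to 0.640. These correlations are across genes, which are not independent replicates. The gap between both sets of values shows that footprints and RNA ordered the genes differently, by far more than replicates of either assay did.

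The tissue was checked against markers. All 12 genes of cortical identity had at least 1 FPKM. They summed to 849, 840.2 and 753 FPKM and to 943, 931 and 1058 RPKM in the 3 libraries, with *Neurod6*, a transcription factor of young excitatory neurons, the most abundant. Genes of the ganglionic eminence, the source of cortical interneurons, summed to 88.2, 87.6 and 86.9 FPKM, and 6 of 8 passed the minimum. Thalamic genes summed to 2.77, 2.34 and 1.73 FPKM, Cajal-Retzius genes to 18, 18.4 and 15.7 FPKM, and microglial genes to 11.6, 15.2 and 13.1 FPKM. Meningeal genes summed to 7.71, 14.7 and 7.63 FPKM. None of the marker genes was at 0 in every library.

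Markers of the choroid plexus differed between libraries far more than those of cortex. They summed to 69.2, 799 and 315 FPKM and to 456, 1968 and 580 RPKM, nearly all of it *Ttr*, the thyroid hormone carrier of that tissue. Erythroid genes summed to 487, 879 and 476 FPKM and to 721, 815 and 376.7 RPKM, led by *Hba-a1*, which encodes alpha globin. Replicate 2 was the highest for both tissues in both assays. The part of these tissues in the results below was not tested, and in such bulk samples fewer cells of a type and less RNA per cell cannot be told apart.

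Relative TE was the log2 ratio of RPKM to FPKM after each library was centred on its median gene, so that 0 is a gene at the median of both assays. The library medians were 4.90, 4.93 and 4.88 RPKM and 7.30, 7.24 and 7.18 FPKM. With limma over all 13410 genes, 3717 genes (27.7%) were called high, at least 2-fold above the median gene, and 3963 (29.6%) were called low. Of the 7680 genes called, 7659 lay on the called side in each of the 9 combinations of a Ribo-seq with an RNA-seq library. The calls were made from these same libraries, so this follows largely from the calling and is no independent support. Among 11411 protein-coding genes, 3554 (31.1%) were high and 2524 (22.1%) were low. The median relative TE was 0.08 over all genes tested, 0.32 over protein-coding genes and -2.66 over all other genes. High genes made up 48.4% of the calls, but 26.0% when libraries were not centred, which moved the median of all genes to -0.47, and 72.7% with no minimum on FPKM. Calls against the median gene therefore rank genes and do not give an absolute number of well translated genes.

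Both assays were divided by the same gene length, once rounded to whole bases, in all 13603 genes where it could be computed from both, so TE here is not per coding length, and RNA outside the reading frame weighs on it. Footprints are short, and genes with near-identical copies or with a second coding gene at the same place are uncertain in either direction. Besides those named below as overlapping, this holds for *Farsb*, *Kdm5b*, *Hnrnpf*, *Usp22*, *Pfkp*, *Nfix*, *Zbtb16*, *Zfp706*, *Dbi*, *Sstr2*, *Dcp1b*, *H2afy2*, *Atf5* and *Slc35a4*. The 46 families below were described by counts and medians. Of these, 36 kept their side of the median gene in every one of 16 alternative analyses in which they had a value, among them each of the 12 families at least 2-fold above and the 12 at least 2-fold below it. The other 10 are named with their change of side. The alternatives reuse the same libraries, and a family picked for its distance from the median gene is unlikely to change side. Keeping side is therefore no independent support. Counts of called members are to be read beside 31.1% high and 22.1% low among protein-coding genes, whose median was 0.32.

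**Figure D1:**
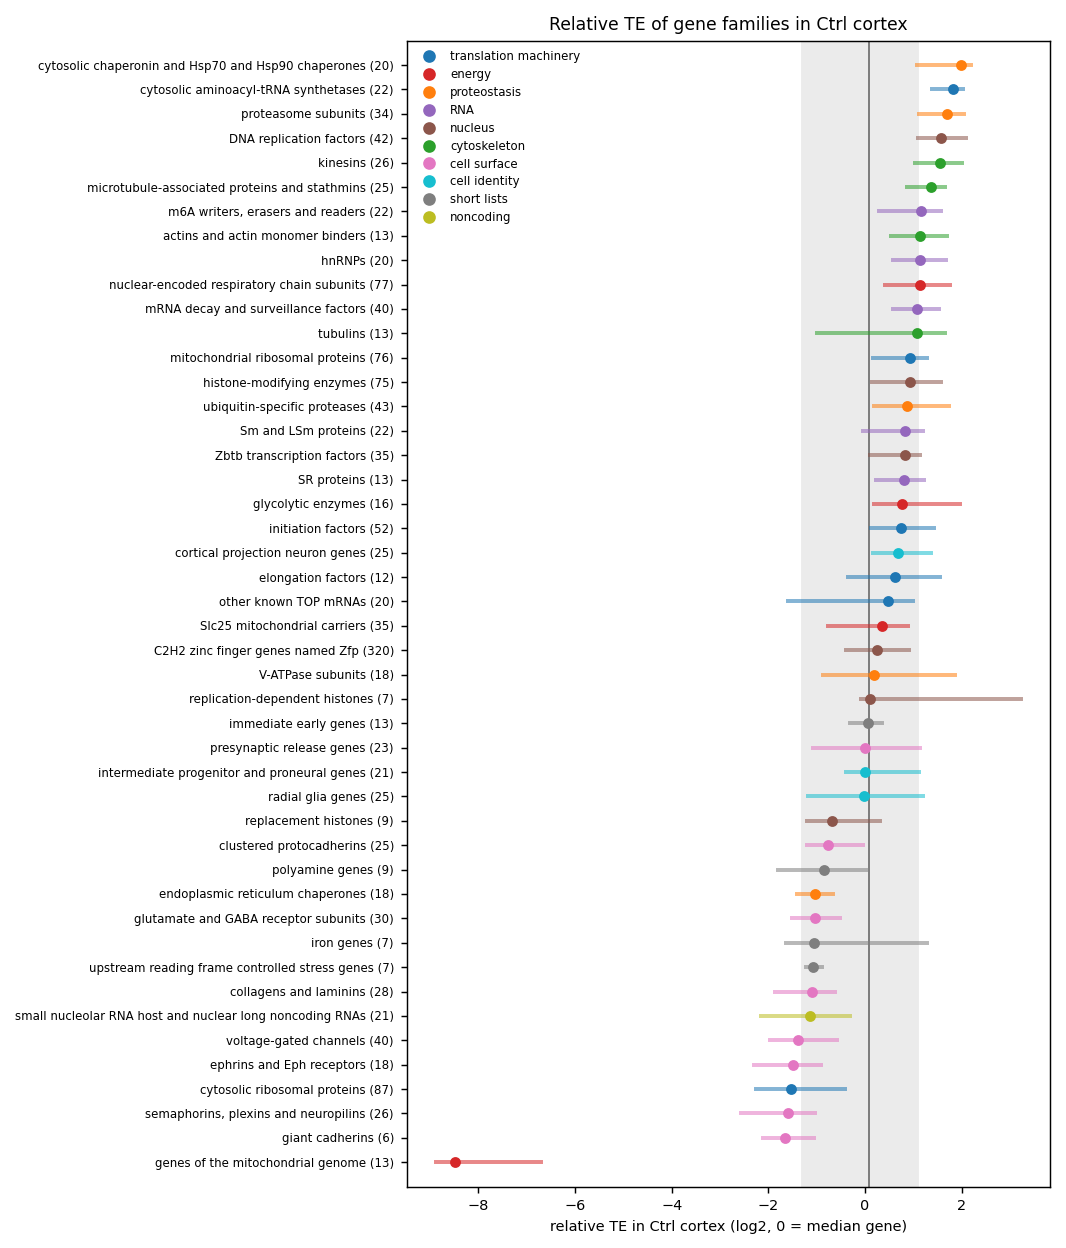
Relative TE (log2, horizontal axis, 0 is the median gene) of 46 gene families in Ctrl cortex, with the number of genes tested in brackets; points are medians, bars run from the lower to the upper quartile, and the line and grey band give the median and quartiles of all 13410 genes. Cytosolic chaperones, tRNA synthetases and proteasome subunits lie highest (medians 1.99, 1.82 and 1.70), cell surface families other than presynaptic release genes and cytosolic ribosomal proteins lie low, and mitochondrially encoded genes lowest (-8.49); TOP mRNAs other than those of ribosomal proteins, Slc25 carriers, V-ATPase, Zfp, replication-dependent histone, protocadherin, presynaptic, radial glia, intermediate progenitor and immediate early genes changed side under 1 or more alternatives.

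The machinery of translation was itself split. Of 87 cytosolic ribosomal protein genes tested, 59 were low and 3 were high, with a median relative TE of -1.53. They took 3.80, 3.98 and 3.83% of RNA-seq counts in the 3 Ctrl libraries and 1.05, 1.04 and 0.944% of Ribo-seq counts. The family thus held a smaller share of footprints than of RNA in each library. Ribo-seq counts, unlike RPKM, are blank for 1671 of the genes tested, which add nothing to the shares given here and below. *Rplp1*, which encodes an acidic protein of the ribosomal stalk and lies at chr9:61913283-61914510, had the most RNA, 1450.2, 1500.1 and 1486 FPKM, beside 217, 190.3 and 162 RPKM. Its relative TE was -2.42 ± 0.12 (SE), 5.35-fold below the median gene (adjusted *P* = 5.8e-07).

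Many ribosomal protein genes have processed copies elsewhere in the genome with nearly the same sequence. The 63 members with a named copy had a median of -1.71, and the 24 without had -1.06, 12 of them low. Without 5 members that are themselves gene copies, 55 of 82 were low and the median was -1.46. *Rps3a2*, one of these copies, was the lowest of the family at -6.73 ± 0.20, and *Rpl24*, which overlaps *Zbtb11*, was the highest at 2.42 ± 0.38, so both extremes are uncertain. Among genes typed as protein-coding in RefSeq, which here leaves out those of the mitochondrial genome, and called with at least 10 FPKM, the 6 lowest were *Rps27rt*, *Rpl34-ps1*, *Tma7-ps*, *Rpl37rt*, *Sap18b* and *Gm15501*. *Rpl34-ps1* had 191, 212 and 198 FPKM and no footprint in any library, and *Rps27rt* had 262, 272 and 267 FPKM and likewise none. By name at least 4 of the 6 are copies of other genes.

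A start with C followed by at least 4 C or T bases was found at an annotated start of 15 of the 62 ribosomal protein genes that had a start sequence (24.2%). Among all protein-coding genes tested with such a sequence it was found in 276 of 9186 (3.00%), and in 2.51% of all 32851 starts listed. None of the 10 elongation factors with a sequence had such a start. Only the exact base of an annotated start was looked at, and a tract beginning beside it was not counted. Finding none therefore does not show that these messages lack the tract. Only 62 of 87 ribosomal protein genes had a sequence, too few for a comparison of their TE by start. Over all protein-coding genes with a sequence, the median relative TE was 0.21 with such a start and 0.35 without. As examples of the tract, chosen after the values were seen, these are 5 starts from RefSeq GRCm38.p6, given on the strand of the gene with 10 bases before the annotated start; capitals mark the run of C and T from the start. They lie on chromosome 14 at 18270967 to 18270996 (*Rpl15*, minus strand), chromosome 4 at 86857348 to 86857377 (*Rps6*, minus), chromosome 2 at 39005112 to 39005141 (*Rpl35*, minus), chromosome 17 at 27635225 to 27635254 (*Rps10*, minus) and chromosome 7 at 141447641 to 141447670 (*Rplp2*, plus).
Rpl15: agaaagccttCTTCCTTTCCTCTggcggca
Rps6: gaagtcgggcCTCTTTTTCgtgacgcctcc
Rpl35: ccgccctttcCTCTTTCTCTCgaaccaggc
Rps10: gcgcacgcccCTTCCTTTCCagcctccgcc
Rplp2: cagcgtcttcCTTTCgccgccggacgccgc

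Elongation factors, which carry tRNA to the ribosome and move it along the message, held 1.15, 1.19 and 1.13% of RNA-seq counts and 0.385, 0.383 and 0.341% of Ribo-seq counts. Without the 10 largest genes of each assay, they held 0.157, 0.163 and 0.155% of RNA-seq counts and 0.422, 0.426 and 0.400% of Ribo-seq counts. *Eef1a1* and *Eef2* are among the 10 largest in RNA-seq but not in Ribo-seq. These shares therefore cover different members of the family and cannot be set against each other. Of 12 genes 5 were high and 2 were low (median 0.61). *Eef1a1*, which delivers aminoacyl-tRNA and is listed among known TOP mRNAs, had 2576, 2602 and 2550.4 FPKM and 561, 601 and 586 RPKM, a relative TE of -1.59 ± 0.09 (adjusted *P* = 1.6e-06), which is uncertain because near-identical copies and *Eef1a2* share fragments with it. The neuronal counterpart *Eef1a2* had 48.4, 43.9 and 48.1 FPKM and 140.0, 103 and 102 RPKM, and lay at 1.83 ± 0.13 (adjusted *P* = 3.8e-06). Both paralogues carry out the same step, and in each library *Eef1a1* was below and *Eef1a2* above the median gene. *Eef1g*, a subunit of the exchange factor complex, was the lowest elongation factor at -2.76 ± 0.11. The 20 known TOP mRNAs other than those of ribosomal proteins ranged from *Eef1g* to *Vim* (2.18 ± 0.13), the intermediate filament of radial glia, with 5 high (25%) and 6 low (30%), near the 27.7% and 29.6% of all genes; their median of 0.47 changed side to -0.08 when libraries were not centred.

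Initiation factors had 23 of 52 genes high and 2 low (median 0.75). *Eif3c*, a core subunit of the factor that holds the small ribosomal subunit, was highest at 2.53 ± 0.07, and *Eif5a*, which had the most RNA of the family, lay at 0.67 ± 0.07 and overlaps *Gps2*. *Eif3j2*, which shares its sequence with a paralogue, had no footprint in any library and 2.70, 2.89 and 2.07 FPKM. Of 22 cytosolic aminoacyl-tRNA synthetases, which charge tRNAs with amino acids, 18 were high and none was low, with a median of 1.82. *Farsb*, the beta subunit of phenylalanyl-tRNA synthetase, had 126, 119 and 113 RPKM and 28.6, 26.3 and 30.2 FPKM, 6.14-fold above the median gene. *Nars*, for asparagine, had the most RNA and lay at 2.34 ± 0.07, and *Vars*, for valine, was lowest at 0.05 ± 0.08. Synthetases held 0.227, 0.226 and 0.226% of RNA and 0.464, 0.448 and 0.434% of footprints, the opposite order to that of ribosomal proteins. Of 76 mitochondrial ribosomal protein genes 36 were high and 2 were low (median 0.93), *Mrpl34* having the most RNA at -0.32 ± 0.10, from *Mrpl23* at -1.33 ± 0.16 to *Mrps23* at 4.66 ± 0.31, which overlaps *Cuedc1*. Ribosomal proteins of the cytosol and of the mitochondrion therefore lay on opposite sides of the median gene.

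**Figure D2:**
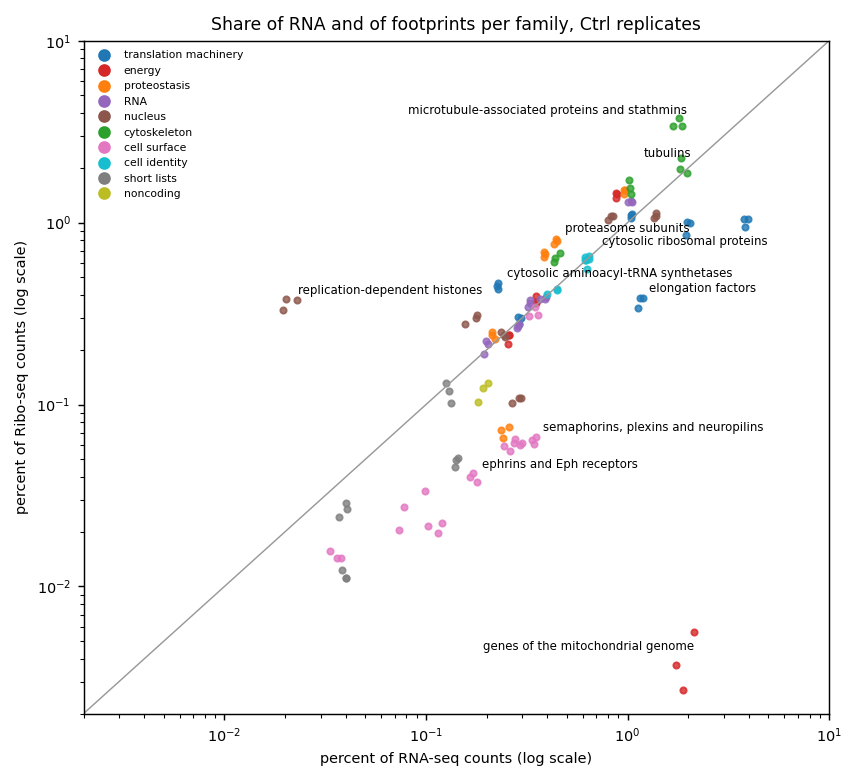
Percent of RNA-seq counts (horizontal, log scale) against percent of Ribo-seq counts (vertical, log scale) held by each of 46 families, with 1 point for each of the 3 Ctrl replicate numbers and a line of equal shares. Microtubule-associated proteins (3.74, 3.41 and 3.42% of footprints) lie above the line, and ribosomal proteins (1.05, 1.04 and 0.944%) and mitochondrially encoded genes (0.00268, 0.00371 and 0.00561%) lie below it; the libraries of both assays are joined by their number alone.

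Respiratory chain and ATP synthase subunits encoded in the nucleus had 44 of 77 genes high and 4 low, with a median of 1.13. *Cox6a1*, a subunit of cytochrome c oxidase, had the most RNA and lay at -0.41 ± 0.12, and *Cox7c*, a small subunit of the same complex, was lowest at -2.77 ± 0.13. *Atp5a1*, the alpha subunit of ATP synthase, had 749.5, 728 and 707 RPKM against 11.9, 11.5 and 9.32 FPKM. It overlaps *Haus1*, so its place as the highest of all abundant coding genes is uncertain.

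The 13 protein-coding genes of the mitochondrial genome formed the lowest family, with 12 low and a median of -8.49. They held 1.89, 1.73 and 2.14% of RNA-seq counts and 0.00268, 0.00371 and 0.00561% of Ribo-seq counts. *mt-Co1*, a subunit of cytochrome c oxidase made on mitochondrial ribosomes, had 4968, 4543 and 5419 FPKM and 6.88, 9.17 and 21.9 RPKM (relative TE -8.23 ± 0.38). *mt-Co2* had no footprint in any of the 3 libraries and 134, 132 and 145 FPKM. *mt-Atp8*, of ATP synthase, was the highest at -0.94 ± 0.46 and was not called (adjusted *P* = 8.5e-02), but was low under 5 of 15 alternatives (-1.49 to -1.17), among them that without Ribo-seq replicate 3 (-1.45). Footprints of this genome varied more between libraries than those of any other family, with an SD of 0.316 for the family median over the 3 Ribo-seq libraries, beside a median SD of 0.0729 over families. Mitochondrial ribosomes differ from cytosolic ones in size, and whether the assay captured them was not tested.

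Glycolytic enzymes had 7 of 16 high and 1 low (median 0.77). *Pfkp*, a phosphofructokinase, was lowest at -1.24 ± 0.19 and *Pkm*, the pyruvate kinase with the most RNA, lay at 0.20 ± 0.08. *Gapdh* was the highest, but its FPKM of 21.1, 2.80 and 2.82 beside 61.7, 55.9 and 69.5 RPKM differed between RNA-seq libraries, and many copies share its sequence, so its value of 4.02 ± 0.71, and 4.97 without RNA-seq replicate 1, is uncertain. Carriers of the inner mitochondrial membrane (Slc25) had 8 high and 8 low among 35 (22.9% each, beside 31.1% and 22.1% of protein-coding genes), from *Slc25a36* at -2.55 ± 0.10 to *Slc25a12*, the aspartate and glutamate carrier, at 1.77 ± 0.08. Their median of 0.36 changed side to -0.20 without centring, to -0.02 with edgeR and to -0.07 without genes that have copies or overlaps. *Slc25a4*, the adenine nucleotide translocase with the most RNA of these, was high at 1.55 ± 0.08, but was no longer called without centring (0.9998).

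Families that fold and degrade proteins in the cytosol lay far above the median gene, and their counterpart in the endoplasmic reticulum lay below it. Of 20 chaperonin, Hsp70 and Hsp90 genes 16 were high and none was low (median 1.99). *Cct8*, a subunit of the chaperonin that folds actin and tubulin, lies at chr16:87483325-87495869, where it overlaps *Usp16*. It had 407, 435 and 419.9 RPKM and 96.9, 90.5 and 95.5 FPKM, 6.54-fold above the median gene (relative TE 2.71 ± 0.07, adjusted *P* = 3.8e-08). *Hsp90ab1*, the constitutive Hsp90, had 1661, 1619 and 1519.7 RPKM and 806, 787 and 748 FPKM and lay at 1.59 ± 0.10. The lowest member, the Hsp70 partner *Dnaja1*, lay at -0.77 ± 0.07, has a named copy and was low under 3 of 16 alternatives (-1.32 to -1.06).

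Proteasome subunits had 26 of 34 genes high and none low, with a median of 1.70. *Psmd6*, in the lid of the regulatory particle, had 209, 195 and 183 RPKM and 41.3, 40.6 and 39.8 FPKM (2.82 ± 0.07). *Psma6*, an alpha ring subunit with the most RNA, lay at 2.24 ± 0.08, and *Psmb5*, a catalytic subunit with a named copy, was lowest at -0.92 ± 0.06 and low under 5 of 16 alternatives (-1.48 to -1.15). Ubiquitin-specific proteases, which remove ubiquitin, had 21 of 43 high and 2 low (median 0.87). Among them *Usp22*, of the SAGA complex, had the most RNA and lay at 1.93 ± 0.07, and the outer values were those of *Usp49* (-4.02 ± 0.13, overlapping *Tomm6*) and *Usp39* (5.59 ± 0.22).

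Of 18 chaperones of the endoplasmic reticulum 9 were low and none was high (median -1.04). *Calr*, the calcium-binding chaperone calreticulin, had 37.8, 43.7 and 50.2 RPKM and 124, 122 and 136 FPKM and lay at -0.99 ± 0.11; it was not called, but was low under 9 of 16 alternatives (-1.54 to -1.02), among them those without Ribo-seq replicate 3 (-1.09), RNA-seq replicate 1 (-1.02) or RNA-seq replicate 2 (-1.02). *Dnajb9*, a partner of the chaperone BiP, was lowest at -2.26 ± 0.23 with 0.937, 1.2 and 1.91 RPKM and 10.6, 8.82 and 9.72 FPKM, and *Manf* was highest at -0.31 ± 0.08. V-ATPase subunits, which acidify lysosomes and synaptic vesicles, had 7 high (38.9%) and 4 low (22.2%) of 18, near the 31.1% and 22.1% of protein-coding genes. Their median of 0.18 changed side to -0.37 without centring, to -0.04 with protein-coding genes only or centring on them, to -0.18 with edgeR and to -0.28 with at least 5 FPKM. *Atp6v1g1*, a stalk subunit, had the most RNA, 155, 149 and 148 FPKM, and the lowest TE, -2.88 ± 0.15; *Atp6v1c1* was highest at 3.57 ± 0.27.

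Families of factors that process RNA had medians above the 0.32 of protein-coding genes, of which 31.1% were high and 22.1% were low. SR proteins and Sm and LSm proteins lay nearer to this share of high genes than decay factors and hnRNPs did. mRNA decay and surveillance factors had 22 of 40 high and none low (median 1.07), hnRNPs 11 of 20 high and 1 low (1.15), SR splicing proteins 5 of 13 high and none low (0.80), and Sm and LSm proteins 9 of 22 high and 1 low (0.84). *Exosc9*, of the RNA exosome, lay at 3.17 ± 0.07 and overlaps *Ccna2*. *Ddx6*, a helicase of processing bodies with the most RNA of the decay factors, lay at 0.23 ± 0.06, and the decapping cofactor *Dcp1b* at -0.90 ± 0.10, low under 5 of 16 alternatives (-1.46 to -1.13). *Hnrnpu* had 164, 182 and 203 RPKM and 4.68, 3.76 and 4.16 FPKM (5.97 ± 0.11), and overlaps *Cox20*, so the value is uncertain. *Hnrnpf* was lowest of its family at -3.00 ± 0.20, and *Hnrnpa1*, with the most RNA, lay at -0.00 ± 0.14. *Srsf1*, a founding SR protein, had 96.2, 99.0 and 91.4 RPKM and 5.74, 4.80 and 4.95 FPKM and lay at 4.74 ± 0.08. *Srsf7* had the most RNA at 0.80 ± 0.07 and *Srsf12* the lowest TE at -0.85 ± 0.13, low under 6 of 17 alternatives (-1.41 to -1.07). In the Sm and LSm family the values ran from -1.38 ± 0.11 for *Snrpg* to 2.09 ± 0.07 for *Lsm3*, with *Lsm14b*, which had the most RNA, at 1.00 ± 0.07; it was no longer called under 12 of 17 alternatives (0.448 to 1.00), among them 4 of 6 without 1 library (0.951 to 0.999).

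Of 22 writers, erasers and readers of m6A 12 were high and 1 was low in Ctrl, with a median of 1.16. The family held 0.389, 0.394 and 0.367% of RNA-seq counts and 0.380, 0.390 and 0.379% of Ribo-seq counts, nearly the same share of each. *Mettl3*, the catalytic subunit of the writer, had 9.16, 9.25 and 9.93 RPKM and 5.84, 6.43 and 5.07 FPKM and lay at 1.26 ± 0.10 (adjusted *P* = 7.2e-06); it overlaps *Tox4*. *Mettl14*, its partner, had 8.03, 8.63 and 9.35 RPKM and 5.69, 5.56 and 5.16 FPKM and lay at 1.21 ± 0.08. *Fto* had 25.9, 22.0 and 17.6 RPKM and 10.8, 11.2 and 8.37 FPKM and lay at 1.65 ± 0.16. *Mettl3* was no longer called with at least 5 FPKM (0.961), without centring (0.705) or with edgeR (0.882). *Mettl14* was no longer called in these (0.909, 0.653 and 0.838), nor with protein-coding genes only or centring on them (0.980), nor without genes that have copies or overlaps (0.993). The call of *Fto* was kept in all of these.

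Of the other writer subunits, *Virma* (2.33), *Rbm15* (2.34, overlapping *Slc16a4*), *Zc3h13* (1.83) and *Cbll1* (1.12) were high, while *Wtap* (0.11) and the separate methyltransferase *Mettl16* (0.75) were not called. *Rbm15b*, a paralogue of *Rbm15*, was the only low member, with 9.31, 9.72 and 8.08 RPKM and 33.8, 33.5 and 30.1 FPKM (-1.28 ± 0.08); it overlaps *Dcaf1* and was no longer called with no minimum on FPKM (-0.96). *Rbm15* had less RNA, 2.89, 2.74 and 2.30 FPKM, and more footprints per RNA. The eraser *Alkbh5* lay at -0.28 ± 0.10. Among readers, *Ythdf2* (1.51), *Ythdf3* (1.49), *Ythdc2* (1.82), *Fmr1* (1.26) and *Igf2bp3* (1.58, overlapping *Malsu1*) were high. *Cbll1* was no longer called under 8 of 17 alternatives (0.566 to 1.12, the highest in a test against 2-fold), *Fmr1* under 3 (0.711 to 0.967), and *Ythdf2* (0.957) and *Ythdf3* (0.941) without centring. *Ythdf1* (0.78), *Ythdc1* (0.91), *Hnrnpa2b1* (0.96), *Igf2bp2* (0.14), *Igf2bp1* (-0.24) and *Prrc2a* (-0.36) were not called.

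In the nucleus, DNA replication factors stood out, with 34 of 42 genes high and none low (median 1.58). *Rrm1*, the large subunit of ribonucleotide reductase, had 41.3, 41.8 and 38.6 RPKM and 8.61, 8.14 and 6.59 FPKM, 7.61-fold above the median gene. *Pcna*, the sliding clamp, had the most RNA and lay at 1.22 ± 0.08 with 2 named copies, no longer called under 5 of 16 alternatives (0.665 to 0.993), and *Pold3*, of DNA polymerase delta, was lowest at 0.22 ± 0.07. Histone-modifying enzymes had 35 of 75 high and 5 low (median 0.93), from the arginine methyltransferase *Prmt6* at -2.19 ± 0.13 to the demethylase *Kdm5b* at 2.83 ± 0.07, with *Prmt1*, the most abundant by RNA, at 1.79 ± 0.07. Zbtb factors had 15 of 35 high and 2 low (median 0.83). Among them *Zbtb18*, a repressor needed in cortical development, had 224, 255.4 and 273 RPKM and 183, 168 and 189 FPKM (1.03 ± 0.10), no longer called under 10 of 17 alternatives (0.476 to 1.03), among them those without Ribo-seq replicate 3 (0.961) or RNA-seq replicate 2 (0.981), between *Zbtb4* (-1.60) and *Zbtb16* (1.62).

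Zinc finger genes named Zfp had 66 of 320 high (20.6%) and 31 low (9.69%), beside 27.7% and 29.6% of all genes and 31.1% and 22.1% of protein-coding genes tested. Their median of 0.24 changed side to -0.31 without centring, to -0.13 with edgeR and to -0.03 with at least 5 FPKM. *Zfp57*, which guards imprinted loci, had the most RNA and lay at -0.38 ± 0.09, between *Zfp706* at -2.19 ± 0.07 and *Zfp382* at 2.58 ± 0.12. Replacement histones, made outside S phase from polyadenylated messages, had 3 of 9 low (33.3%) and none high (median -0.69). This share of low genes is near the 29.6% of all genes, beside 22.1% of protein-coding genes. *H3f3b*, a gene for histone H3.3, had 75.1, 78.3 and 70.2 RPKM and 352, 342 and 337 FPKM (-1.65 ± 0.07), and *H2afy2* was highest at 0.59 ± 0.06.

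Replication-dependent histones, whose messages end in a stem-loop and have no poly(A) tail, passed the RNA minimum in only 7 of 69 genes. Of these 3 were high and 1 was low, with a median of 0.11 that changed side to -0.45 without centring, to -0.12 with protein-coding genes only or centring on them and to -0.28 with at least 5 FPKM. The whole family held 0.0203, 0.0229 and 0.0195% of RNA-seq counts and 0.382, 0.375 and 0.333% of Ribo-seq counts. *Hist1h4k* had 411, 348 and 393 RPKM beside 2.86, 0.907 and 2.74 FPKM, and *Hist3h2a* had 0.392, 0.463 and 0.335 RPKM beside 19.5, 19.6 and 16.5 FPKM and overlaps *Trim17*. *Hist3h2ba*, with the most RNA, lay at -0.09 ± 0.19. Histone genes share much of their sequence, and a member that passed the minimum is no sample of the others.

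Microtubule-associated proteins and stathmins took 1.80, 1.68 and 1.87% of RNA-seq counts and 3.74, 3.41 and 3.42% of Ribo-seq counts, with 17 of 25 genes high and none low (median 1.38). *Map1b*, which stabilises microtubules in growing axons and lies at chr13:99421464-99516602, had 654, 609.6 and 669 RPKM and 109.8, 96.2 and 101 FPKM, 9.23-fold above the median gene (3.21 ± 0.08, adjusted *P* = 4.2e-08). *Stmn1*, which binds free tubulin and had the most RNA, lay at 1.11 ± 0.12 with 2090.1, 1866 and 2205 RPKM and 1352, 1346 and 1491 FPKM, and was no longer called under 6 of 16 alternatives (0.555 to 1.11). *Dpysl2*, a tubulin carrier of the growth cone, was highest at 4.53 ± 0.10 but overlaps *Pnma2*, and *Map6* was lowest at -0.47 ± 0.10. Kinesin motors had 20 of 26 genes high and 1 low (median 1.54), among them *Kif5c*, a neuronal transport motor, at 1.57 ± 0.09, *Kif20a*, a mitotic motor that overlaps *Brd8*, at 2.50 ± 0.16, and *Kif1c*, the lowest, at -1.41 ± 0.12.

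Actin and its monomer binders had 7 of 13 genes high and none low (median 1.15). *Actb*, beta-actin, had 4197, 3783 and 3263 RPKM and 716, 713 and 695 FPKM, 7.72-fold above the median gene and above it in every alternative analysis; it shares most of its coding sequence with *Actg1*, which lay at 0.97. The family held 1.02, 1.03 and 1.04% of RNA-seq counts and 1.73, 1.56 and 1.44% of Ribo-seq counts. Without the 10 largest genes of each assay these were 1.07, 1.08 and 1.09%, and 0.867, 0.788 and 0.881%. *Actb* is among those genes in Ribo-seq alone, so the latter shares cover different members and cannot be set against each other. *Tmsb4x*, which sequesters actin monomers, had more RNA, 1502, 1468 and 1551 FPKM, and lay at 0.53 ± 0.13; *Twf1* was lowest at 0.21 ± 0.07. Tubulins had 8 of 13 high and 3 low (median 1.07). Tubulins held 1.84, 1.82 and 1.97% of RNA-seq counts and 2.27, 1.97 and 1.87% of Ribo-seq counts. Without the 10 largest genes of each assay these were 0.197, 0.194 and 0.210%, and 0.185, 0.164 and 0.180%. *Tuba1a* is among those genes in RNA-seq alone, so here too the latter shares cover different tubulins. The low ones were *Tuba1a* (-5.74 ± 0.16), *Tuba1b* (-4.89) and *Tuba1c* (-2.90). *Tuba1a*, the main alpha-tubulin of young neurons, had 3463, 3285 and 3818 FPKM and 39.6, 39.6 and 56.8 RPKM. These genes have nearly the same coding sequence, so short footprints cannot be assigned to one of them with certainty, and their values are uncertain; *Tuba1b* and *Tuba1c* are named for this after their values were seen. *Tuba4a*, which overlaps *Stk16*, was highest at 2.30 ± 0.22.

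Most cell surface families lay below the median gene. In all 8 of them 111 of 196 genes were low and 14 were high, with a median of -1.09. Presynaptic release genes, described last, held 10 of the 14 high genes; leaving them out, 104 of 173 genes in 7 families were low and 4 were high, with a median of -1.15. Semaphorins, plexins and neuropilins, the guidance cues and receptors that steer axons and migrating neurons, had 20 of 26 low and none high (median -1.60), and held 0.345, 0.353 and 0.337% of RNA-seq counts against 0.0610, 0.0665 and 0.0637% of Ribo-seq counts. *Sema6b*, a transmembrane semaphorin at chr17:56123085-56140343, had 1.42, 1.65 and 1.57 RPKM and 22.5, 23.7 and 26.4 FPKM, 10-fold below the median gene (-3.33 ± 0.10, adjusted *P* = 6.7e-08). *Sema7a*, a membrane-anchored semaphorin with the most RNA, had 4.76, 3.94 and 4.29 RPKM and 36.6, 34.9 and 40.0 FPKM (-2.52 ± 0.09). The 3 replicates of each gene were close in both assays. The secreted *Sema3a* was highest of the family at 0.12 ± 0.14, next to the median gene.

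Ephrins and Eph receptors, which guide by contact, had 13 of 18 genes low and none high (median -1.48). *Efnb3* had both the most RNA and the lowest TE, with 6.6, 4.89 and 4.22 RPKM and 57.6, 50.1 and 56.5 FPKM (-2.83 ± 0.15), and *Efna5* lay highest at -0.23 ± 0.16. Giant cadherins of planar polarity passed the minimum in 6 of 9 genes, 4 of them low (median -1.66). *Celsr1* had 1.47, 1.55 and 1.59 RPKM and 13.4, 14.3 and 8.78 FPKM (-2.32 ± 0.18), *Dchs1* lay at -1.95 ± 0.08 and *Fat3* at -0.78 ± 0.19, low under 4 of 16 alternatives (-1.34 to -1.01). Clustered protocadherins passed in 25 of 57 genes, with 10 low and none high. Their median of -0.77 changed side to 0.21 with no minimum on FPKM, and members that share exons, such as *Pcdhga12* (0.71) and *Pcdhgc3* (-0.59), are uncertain; *Pcdhb22* was lowest at -2.55. Collagens and laminins had 15 of 28 low and 2 high (median -1.10). *Col4a1*, of vascular basement membranes, lay at -2.28 ± 0.21 and *Col9a3* at -3.15 ± 0.24, both overlapping other genes, and *Col1a1*, which was also used as a meningeal marker, was highest at 1.27 ± 0.30. All 4 endothelial markers were low (median -1.79), with *Cldn5*, a tight junction protein named here after its value was seen, at 34.8, 38.5 and 39.4 FPKM and 2.83, 4.51 and 5.18 RPKM.

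Voltage-gated channels had 25 of 40 genes low and none high (median -1.38). *Kcna6*, a potassium channel, had 0.192, 0.227 and 0.208 RPKM and 4.11, 3.61 and 4.82 FPKM (-3.23 ± 0.15), *Cacnb3*, a calcium channel subunit with the most RNA, lay at -1.31 ± 0.10, and *Kcna3* was highest at 0.83 ± 0.16. Glutamate and GABA receptor subunits had 17 of 30 low and 2 high (median -1.04). *Grik5*, a kainate receptor subunit that overlaps *Zfp574*, had 4.22, 4.41 and 4.84 RPKM and 43.3, 45.6 and 47.8 FPKM (-2.76 ± 0.08), and *Grm3*, a metabotropic receptor, was highest at 1.79 ± 0.19. *Grina*, named after the NMDA receptor but a different kind of protein, was matched by name and lay at -1.15 ± 0.09.

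Presynaptic release genes had 10 of 23 high (43.5%) and 7 low (30.4%), beside 31.1% and 22.1% of protein-coding genes and 27.7% and 29.6% of all genes. Their median of 0.01 changed side under 10 of 16 alternatives, for example to -0.54 without centring. *Nsf*, the ATPase that recycles the fusion machinery and works in the cytosol, was highest at 2.34 ± 0.12 with 27.4, 20.3 and 22.6 RPKM and 7.07, 6.19 and 6.77 FPKM. *Slc17a7*, the vesicular glutamate transporter, was lowest at -3.05 ± 0.13 with 1.04, 1.01 and 0.733 RPKM and 12.8, 12.4 and 11.6 FPKM. *Syt4*, a synaptotagmin of the vesicle membrane, had the most RNA and lay at -1.23 ± 0.13.

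Radial glia genes had 7 of 25 high (28.0%) and 8 low (32.0%), beside 27.7% and 29.6% of all genes and 31.1% and 22.1% of protein-coding genes tested. Intermediate progenitor and proneural genes had 8 of 21 high (38.1%) and 4 low (19.05%). Their medians of -0.02 and -0.01 changed side to 0.30 and 0.45 with no minimum on FPKM and also when single replicates were left out. *Fabp7*, a fatty acid binding protein of radial glia, had 1687, 1635 and 1496 RPKM and 607, 519 and 654 FPKM (1.99 ± 0.12). *Dbi*, which binds acyl-CoA, was highest of the list at 2.54 ± 0.10, and *Hes5*, a target of Notch, was lowest at -2.16 ± 0.27 with 1.90, 0.816 and 1.41 RPKM and 10.4, 9.20 and 7.84 FPKM. *Neurod6* had 498, 503 and 631 RPKM and 328, 313 and 319.6 FPKM (1.31 ± 0.11), between *Sstr2*, a receptor, at -2.16 ± 0.15 and *Neurod4* at 1.86 ± 0.18. Projection neuron genes had 12 of 25 high and 3 low (median 0.68). *Zfpm2* was highest at 2.48 ± 0.08, *Unc5d*, a netrin receptor, was lowest at -1.51 ± 0.12, and *Nfix*, with the most RNA, lay at 0.68 ± 0.08. The lowest of their lists were thus the membrane receptors *Sstr2* and *Unc5d* and the Notch target *Hes5*. Membrane proteins of these lists were not compared with the other members.

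Genes under known translational control were looked at singly. Of 7 stress genes with upstream reading frames 4 were low and none was high (median -1.08). *Ddit3*, a stress-induced transcription factor, had 0.923, 0.950 and 1.02 RPKM and 8.15, 8.86 and 8.64 FPKM (-2.47 ± 0.09), and overlaps *Mars1*. *Atf4*, the effector of the integrated stress response, had 20.8, 19.2 and 26.5 RPKM and 69.6, 67.8 and 67.1 FPKM (-1.08 ± 0.12), and was no longer called under 3 of 17 alternatives (-1.08 to -0.76), among them that without Ribo-seq replicate 2 (-0.98). *Ppp1r15b* (-1.33), a phosphatase subunit that restores initiation, and *Slc35a4* (-1.12) were also low, while *Ifrd1* (0.40) was not called. *Slc35a4* was no longer called with no minimum on FPKM (-0.80) or in a test against 2-fold. *Ppp1r15a* (-0.80) was not called, but was low under 5 of 16 alternatives (-1.35 to -1.03). *Atf5* (-0.97) was not called either, but was low under 8 of 16 alternatives (-1.52 to -1.01), among them those without Ribo-seq replicate 1 or 3 (-1.01 in each case) or RNA-seq replicate 3 (-1.05). Which part of a gene the counts cover is not stated, so the values were not shown to be those of the main reading frame alone.

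All 7 iron genes were called, 3 high and 4 low (median -1.06). The ferritin chains, which both carry an iron-responsive element before the start codon, differed. *Fth1*, the heavy chain, had 1194, 926 and 836 RPKM and 499, 509 and 522 FPKM (1.49 ± 0.14, adjusted *P* = 2.1e-05), and *Ftl1*, the light chain, had 77, 62.6 and 55.5 RPKM and 320.0, 347 and 345 FPKM (-1.83 ± 0.12, adjusted *P* = 2.9e-06). In each library *Fth1* lay above and *Ftl1* below the median gene, but *Ftl1* has 2 named copies and is uncertain, *Fth1* was no longer called without centring (0.934), and the difference itself was not tested. The iron regulatory proteins *Aco1* (1.91) and *Ireb2* (1.07) were high, but *Ireb2* was no longer called under 9 of 17 alternatives (0.518 to 1.07), among them that without Ribo-seq replicate 2 (0.982). Low were the membrane proteins *Tfrc* (-1.67), which takes up iron, *Slc11a2* (-1.60), which carries it across membranes, and *Slc40a1* (-1.06), which exports it. *Slc40a1* was no longer called under 5 of 16 alternatives (-1.06 to -0.28, the latter with a pseudocount of 1), among them those without Ribo-seq replicate 1 (-0.95) or RNA-seq replicate 1 (-0.98).

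Of 9 polyamine genes 4 were low and none was high (median -0.85). *Oaz1*, the antizyme made by a ribosomal frameshift, had 7.55, 8.83 and 9.86 RPKM and 139, 160.4 and 144 FPKM (-3.52 ± 0.11), and *Oaz2* lay at -1.76 ± 0.08; each has a named copy. *Amd1*, S-adenosylmethionine decarboxylase, whose leader holds a polyamine-sensing frame, had 2.33, 2.40 and 2.11 RPKM and 19.2, 18.6 and 16.7 FPKM (-2.39 ± 0.08). *Sms* (-1.81), spermine synthase, was low too, and *Odc1* (-0.25), *Smox* (-0.85), *Sat1* (0.02), *Azin1* (0.61) and *Srm* (0.61) were not called, though *Smox* was low under 5 of 16 alternatives (-1.40 to -1.07). Immediate early genes had 1 high and 1 low of 13, *Dusp1* at 1.29 ± 0.06 and *Nr4a1* at -1.25 ± 0.15, each no longer called under 3 alternatives (0.740 to 0.996 for *Dusp1*, -1.25 to -0.59 for *Nr4a1*). Their median of 0.07 changed side under 6 alternatives, for example to -0.48 without centring, and *Ier5* with the most RNA lay at 0.07 ± 0.10.

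The 6 highest genes typed as protein-coding and called with at least 10 FPKM were *Atp5a1*, *Ppp1ca*, *Dpysl2*, *Cltc*, *Supt16* and *Map1b*. *Cltc*, the clathrin heavy chain, had 334, 321 and 315 RPKM and 37.5, 33.1 and 36.0 FPKM (3.74 ± 0.07), and like *Map1b* it overlaps no other coding gene. *Ppp1ca*, a phosphatase catalytic subunit that overlaps *Rad9a*, lay at 5.82 ± 0.12, and *Supt16*, of the histone chaperone FACT, overlaps *Rpgrip1* and lay at 3.42 ± 0.08. The 4 besides *Cltc* and *Map1b* overlap coding genes and are uncertain.

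Among genes that do not encode proteins, pseudogenes were low in 629 of 688 cases (median -4.08) and long noncoding RNAs in 194 of 413 (median -0.94). Of 21 hosts of small nucleolar RNAs and nuclear long noncoding RNAs 12 were low and 1 was high (median -1.13). *Miat* had 1.05, 1.40 and 1.74 RPKM and 47.5, 51.7 and 52.8 FPKM (-4.56 ± 0.16), while *Malat1*, which stays in the nucleus, had 92.1, 131 and 124 RPKM and 49.5, 61.0 and 56.0 FPKM (1.60 ± 0.14). Whether fragments on such RNAs came from ribosomes was not tested.

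TE varied with RNA level at its upper end. Protein-coding genes had a median relative TE of 0.16 from 1 to below 3 FPKM (2263 genes), 0.33 up to 10 (4133), 0.40 up to 30 (3381), 0.43 up to 100 (1283) and 0.33 up to 300 FPKM (267). In the 84 genes with at least 300 FPKM it was -0.70, with 37 low and 13 high. The 1181 genes of at least 10000 bases had a median of 0.68, beside 0.21 for the 227 genes below 1000 bases. FPKM is the denominator of TE, so high values of it alone move TE down.

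In the knockout groups each family was described in each Ribo-seq library against the RNA-seq libraries of its own group, with no test. *F*-cKO Ribo-seq replicate 2 stood apart and lay beyond all other 8 libraries in 40 of 46 families. In it 13 families changed side of the median gene, and 7 of 8 cell surface families were higher than in any other library. Giant cadherins had medians of -2.01, 0.84 and -2.06 in *F*-cKO replicates 1 to 3, against -1.74, -1.58 and -1.68 in Ctrl and -1.64, -1.63 and -1.80 in *M*-cKO. Chaperones of the endoplasmic reticulum had -0.72, 1.5 and -0.90 in *F*-cKO, -1.14, -1.04 and -1.01 in Ctrl and -0.70, -1.01 and -0.70 in *M*-cKO. Thus both families were above the median gene in replicate 2 alone, and proteasome subunits, at 1.94, 1.01 and 1.78 in *F*-cKO, were nearer to it than in the other libraries. What set this library apart was not tested.

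In the other 8 libraries, without *F*-cKO replicate 2, 38 families stayed on the same side of the median gene. Cytosolic ribosomal proteins had medians of -1.65, -1.58 and -1.47 in Ctrl, -1.2, -1.80 and -1.43 in *F*-cKO and -1.77, -1.64 and -1.58 in *M*-cKO. *M*-cKO overlapped Ctrl, and *F*-cKO did so through replicate 2 alone, its other libraries lying above each Ctrl library. Semaphorins, plexins and neuropilins had -1.64, -1.62 and -1.59 in Ctrl and -1.70, -1.47 and -1.62 in *M*-cKO, and the *F*-cKO libraries gave -2.00, 0.43 and -1.73. The *F*-cKO mean of this family was -1.10, and -1.87 without replicate 2. Kinesins lay at 1.54, 1.5 and 1.47 in Ctrl, 1.41, 0.98 and 1.14 in *F*-cKO and 1.44, 1.54 and 1.44 in *M*-cKO, and tRNA synthetases at 1.79, 1.72 and 1.86 in Ctrl, at 1.76, 1.01 and 1.75 in *F*-cKO and at 1.71, 1.60 and 1.65 in *M*-cKO. In 14 of 46 families the *M*-cKO libraries did not overlap those of Ctrl, and in 5 the *F*-cKO libraries, replicate 2 included, did not. Without replicate 2 further *F*-cKO families did not overlap. Among them were mitochondrial ribosomal proteins (1.05 and 1.07, beside 0.94, 0.88 and 0.93 in Ctrl) and ephrins and Eph receptors (-1.81 and -1.78, beside -1.52, -1.48 and -1.57). The counts of 14 and 5 therefore do not rank the knockouts. With 3 libraries a group, some families fail to overlap by the order of libraries alone. How many would do so, and the share over all genes, were not computed, so neither count is read as a result about these families. Presynaptic release genes were at 0.51, 0.41 and 0.62 in *M*-cKO and 0.16, -0.02 and -0.12 in Ctrl, and voltage-gated channels at -1.02, -0.84 and -1.11 and -1.42, -1.37 and -1.23. Both were higher in *M*-cKO, but most of the 14 families were lower in it. Among the lower ones were cytosolic chaperones, at 1.74, 1.46 and 1.84 in *M*-cKO and 2.03, 1.91 and 1.94 in Ctrl. SR proteins were at 0.59, 0.41 and 0.27 in *M*-cKO and 0.69, 0.74 and 0.81 in Ctrl. These differences were not tested, and both knockouts are set against the same Ctrl libraries.

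**Figure D3:**
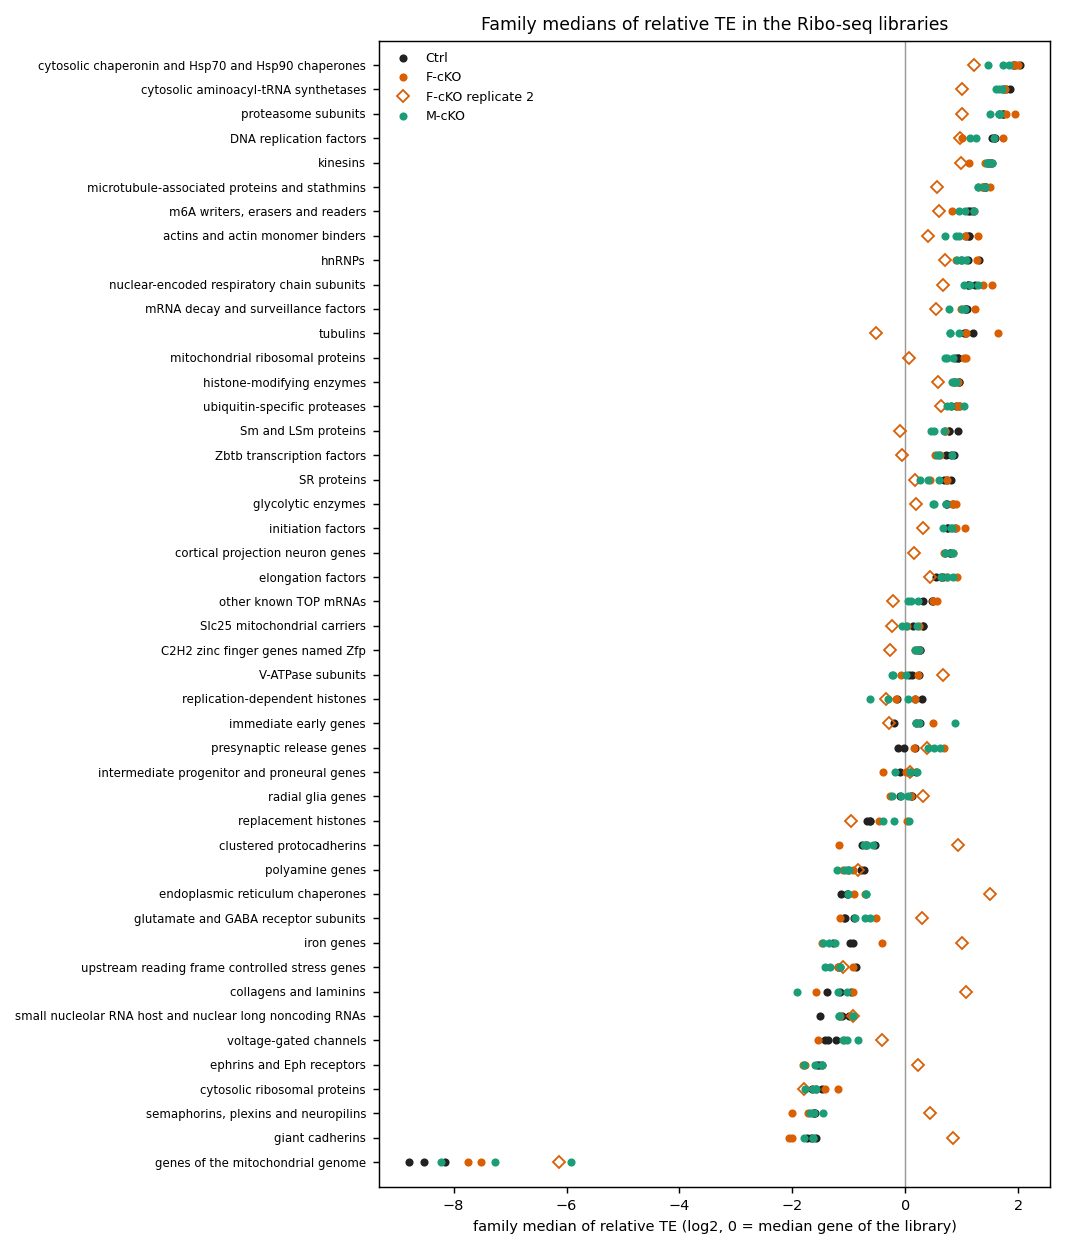
Family medians of relative TE (log2, 0 is the median gene of the library) in the 9 Ribo-seq libraries, each against the RNA-seq libraries of its own group: black Ctrl, orange *F*-cKO with replicate 2 as open diamonds, green *M*-cKO. Families are in the order of their Ctrl medians; *F*-cKO replicate 2 departs from the other 8 libraries, for example at 1.5 for chaperones of the endoplasmic reticulum and 0.84 for giant cadherins, and families near 0 change side between libraries.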

How the data were processed

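RNA-seq and Ribo-seq were made from embryonic day 15.5 mouse cerebral cortex in 3 groups of 3 libraries per assay; the comparison used the 6 Ctrl libraries, and the knockout libraries served for description alone. The deposited RNA-seq tables hold counts and FPKM, from reads that the authors aligned with HISAT2 2.0.5 to mm10. The deposited Ribo-seq tables hold counts and RPKM per gene, from fragments that the authors mapped with TopHat2 to mm10 and counted with HTSeq; which strand was counted is not stated. The submitters' processing notes also name DESeq2 1.14.1. The RPKM and FPKM of the authors imply the same gene lengths. Per library, 18504094 to 22169914 RNA-seq and 30081796 to 35853227 Ribo-seq counts were held by annotated genes, and the 3 replicates per assay gave a standard error of relative TE printed beside each gene.

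Genes had a mean of at least 1 FPKM in Ctrl RNA-seq and a Ribo-seq value. Each of log2(RPKM + 0.1) and log2(FPKM + 0.1) was centred per library on its median over these genes, and both assays were compared with limma 3.58.1 (empirical Bayes with trend) in R 4.3.3. *P* values were adjusted by Benjamini and Hochberg over all 13410 genes. A gene was called at an adjusted *P* below 0.05 and at least 2-fold from the median gene. Tables and figures were made with Python 3.11.15, pandas 2.3.3 and matplotlib 3.10.9. The fit was tested on simulated data. Types, positions and overlaps came from RefSeq GRCm38.p6.

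The genes compared, the families and the markers were chosen with earlier results of these data known. Families had no test. Named genes were the 6 highest and 6 lowest genes called with at least 10 FPKM and typed as protein-coding in RefSeq (genes of the mitochondrial genome had no such type here), in each family the highest, the lowest and that with the most RNA, and every member of the lists on upstream frames, iron, polyamines and m6A. Others are named where they overlap a named gene, mark a tissue or are said to be chosen later.

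Alternatives were pseudocounts of 0.01 and 1, no minimum on FPKM, a minimum of 5 FPKM, protein-coding genes only, no centring and a replicate block. Each library was also left out in turn. Further alternatives were a test against 2-fold, a fold limit of 3 and none, and edgeR 4.0.16 on counts. The edgeR fit covered 11739 genes, since Ribo-seq counts are blank for 1671, and used no length offsets, the lengths being the same in both assays. Shares were also taken without noncoding genes or the 10 largest genes of each assay. Centring on protein-coding genes, and leaving out genes with named copies or overlaps, were added later. Differences between knockouts and Ctrl were described by family medians and not tested.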

Additional observations from a re-analysis of the deposited data

Results flagged for a closer look

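Footprints were also listed on genes left out because their listed RNA was below the minimum. Of 9958 protein-coding genes with a mean below 1 FPKM in Ctrl, 85 had a mean of at least 10 RPKM in Ribo-seq. They were singled out because this is signal in values that the comparison of the report does not use. Of the 85 genes, 12 overlap another coding gene. There were 43 histone genes with a median of 74.8 RPKM, and the other 42 had a median of 18.1 RPKM.

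*Hist1h1a*, which encodes a linker histone of dividing cells, had 670.3, 619 and 528 RPKM and was listed at 0 FPKM in all 3 libraries. *Hist1h1b*, another linker histone, had 566, 472 and 463 RPKM. *Rab3a*, a small GTPase of synaptic vesicles, had 239, 230.4 and 233 RPKM beside 0.501, 0.636 and 0.312 FPKM, and *Arf4*, a GTPase of the Golgi, had 219, 227 and 237 RPKM beside 0, 0 and 0.0148 FPKM. These 4 were named after their values were seen. Whether the low values mean little RNA, or RNA that the table does not assign to these genes, was not tested. Groups of 3 libraries were not tested for a single outlying library.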

How the results depend on the processing

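The number of genes called depended on the processing. High genes, 3717 in the report, numbered 8786 with no minimum on FPKM, 1769 with at least 5 FPKM, 1845 without centring, 2404 with edgeR on the 11739 genes with Ribo-seq counts, 1744 with a fold limit of 3, 6097 with no fold limit and 2138 among coding genes without named copies or overlaps. Low genes, 3963 in the report, numbered 2589 with a pseudocount of 1, 2559 with at least 5 FPKM and 2291 among coding genes without named copies or overlaps. Fewer genes tested, or a different limit, account for some of these counts by construction; the cause of the others was not tested. With 1 library left out, 3659 to 3729 genes were high and 3909 to 3995 were low. No gene called in the report had the opposite call in any of these alternatives.

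Ribo-seq and RNA-seq samples share a number. Deviations of the same number correlated at 0.118, 0.0740 and 0.0665 across all genes tested and at 0.180, 0.296 and 0.136 across protein-coding genes. Each library correlated best with its own number, a hint from the data and not from the design. No pairing was used, since not every value over all genes was above 0.1; with a replicate block 3722 genes were high and 3977 were low.

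Families at least 2-fold above the median gene, 12 in the report, numbered 22 with no minimum on FPKM, 6 with at least 5 FPKM, 6 with protein-coding genes only, 6 when centred on protein-coding genes, 4 without centring and 7 with edgeR. Families at least 2-fold below, 12 in the report, numbered 7 with a pseudocount of 1 and 3 with no minimum on FPKM, and 9 to 12 with 1 library left out. The cause was not tested. Each of these 24 families kept its side of the median gene in all 16 alternatives where it had a value, and of 46 families 36 did so. The 24 were picked for their distance from the median gene in the same libraries, so their keeping side is no independent support.

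Of 174 named genes 20 changed sign under at least 1 alternative, and none of these 20 was called in the report. With no minimum on FPKM the values were *Mrpl34* 0.0040, *Manf* 0.0093, *Hnrnpa1* 0.32, *Alkbh5* 0.042, *Igf2bp1* 0.080, *Hist3h2ba* 0.23, *Efna5* 0.087 and *Odc1* 0.073. With a pseudocount of 1 *Vars* had -0.0047 and with 0.01 *Hnrnpa1* had 0.0039. With at least 5 FPKM they were *Vars* -0.25, *Pkm* -0.094, *Ddx6* -0.070, *Wtap* -0.18, *Pold3* -0.073, *Twf1* -0.081 and *Ier5* -0.22. With protein-coding genes only, and equally when centred on these, they were *Vars* -0.18, *Pkm* -0.022, *Wtap* -0.11, *Igf2bp2* -0.082, *Pold3* -0.0015, *Twf1* -0.010, *Sema3a* -0.11, *Sat1* -0.21 and *Ier5* -0.15. Without centring they were *Vars* -0.51, *Pkm* -0.35, *Ddx6* -0.33, *Wtap* -0.44, *Igf2bp2* -0.41, *Pold3* -0.33, *Twf1* -0.34, *Tmsb4x* -0.024, *Sema3a* -0.43, *Ifrd1* -0.16, *Sat1* -0.54 and *Ier5* -0.48. Without genes that have named copies or overlaps they were *Vars* -0.17, *Pkm* -0.0096, *Wtap* -0.10, *Igf2bp2* -0.069, *Sema3a* -0.095, *Sat1* -0.19 and *Ier5* -0.14. With edgeR they were *Vars* -0.33, *Pkm* -0.17, *Ddx6* -0.15, *Wtap* -0.27, *Igf2bp2* -0.26, *Pold3* -0.16, *Twf1* -0.17, *Sema3a* -0.27, *Sat1* -0.37 and *Ier5* -0.32. With 1 library left out, the ranges were *Vars* -0.023 to 0.10, *Hnrnpa1* -0.14 to 0.14, *Hist3h2ba* -0.29 to 0.10, *Sat1* -0.026 to 0.081 and *Ier5* -0.044 to 0.13. The cause was not tested.

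Of all named gene values under alternatives, 2608 kept their direction and their side of the limits, 65 passed the limits that they had missed, 98 no longer passed them and 72 changed sign. Of 127 named genes called, 99 kept their call under every alternative in which they had a value. The call was lost under 12 alternatives by *Lsm14b*, 10 by *Zbtb18*, 9 by *Ireb2*, 8 by *Cbll1*, 6 by *Mettl14* and *Stmn1*, 5 by *Slc40a1* and *Pcna*, 3 by *Atf4*, *Col1a1*, *Dusp1*, *Fmr1*, *Mettl3* and *Nr4a1*, 2 by *Grina*, *Neurod6*, *Pfkp*, *Slc35a4* and *Syt4*, and 1 by *Cacnb3*, *Fth1*, *Mrpl23*, *Pcdhb22*, *Rbm15b*, *Slc25a4*, *Ythdf2*, *Ythdf3* and *Zbtb4*. Of named genes not called, a call was gained under 9 alternatives by *Calr*, 8 by *Atf5*, 6 by *Srsf12*, 5 by *Dcp1b*, *mt-Atp8*, *Ppp1r15a*, *Psmb5* and *Smox*, 4 by *Fat3*, 3 by *Dnaja1*, and 1 by *Hnrnpa2b1*, *Kcna3*, *Map6*, *Mettl16*, *Nfix*, *Pcdhga12*, *Pcdhgc3*, *Srsf7*, *Ythdc1* and *Ythdf1*. Centring on protein-coding genes and leaving out genes with copies or overlaps were chosen after seeing the data. Scaling footprints to coding length, and bins of protein length, coding share and zinc finger number, were not run, since no table of proteins was used here. Depth limits genes with few footprints: 458 of the genes tested had an RPKM of 0 in all 3 libraries, and the value of such a gene depends on the pseudocount.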

Other observations

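The Ribo-seq counts were more concentrated than the RNA-seq counts. The 10 largest genes held 8.64, 9.96 and 15.0% of counts in the 3 Ctrl Ribo-seq libraries and 4.38, 4.31 and 4.68% in the RNA-seq libraries. The single largest gene was *Rny1*, which encodes a small cytoplasmic RNA, in Ribo-seq replicate 1 and *Yipf1* in replicates 2 and 3, and *mt-Co1* in each RNA-seq library. The microRNA genes *Mir5099* and *Mir99a* were also among the largest in Ribo-seq.

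Small RNA genes with at least 1 FPKM differed by kind. For them relative TE is only a ratio of fragments to RNA, and whether the fragments came from ribosomes was not tested. Of 69 small nucleolar RNA genes 55 were high (79.7%) and 9 low (13.0%), beside 27.7% and 29.6% of all genes tested. Their median relative TE was 3.83, with medians of 2.90 FPKM and 38.7 RPKM. Of 28 small nuclear RNA genes 2 were high and 22 low (-3.46), and of 72 microRNA genes 24 were high (33.3%) and 23 low (31.9%; -0.82), near the 27.7% and 29.6% of all genes tested.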
